A study of Mus musculus with 8 samples.

Results

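The genes described here are 9 members of the tumour necrosis factor (TNF) receptor superfamily that regulatory T cells (Treg cells) are known to carry: Tnfrsf1a, Tnfrsf1b, Tnfrsf4, Tnfrsf9, Tnfrsf14, Tnfrsf18, Tnfrsf25, Cd27 and Fas. They were taken by symbol from a table of 24453 genes, and all 9 were found and passed the filter on low values. RNA came from mouse T cells sorted as CD4-positive and Foxp3-positive. The 8 libraries fall into 3 groups, 2 of line T138, 3 of line T143 and 3 of wild type (WT). T138 and T143 were derived by nuclear transfer, which makes a mouse from the nucleus of 1 T cell, so that each line stands for 1 T cell clone and its receptor. Every library, WT included, is labelled NOD-Foxp3GFP-Rag1-/- with no treatment named. The labels do not settle whether this holds for WT, whose libraries carry T cell transcripts (Cd4 at 14770 to 17655). Any difference in Rag1 or in the range of T cell receptors between WT and the lines cannot be told apart from line. Ages are not stated in the labels, and nothing there ties a library to a separate mouse, so p-values measure the spread between libraries.

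TNF receptors are membrane proteins that bind trimeric ligands of the TNF family through cysteine-rich repeats. Most of the members recruit TRAF adaptor proteins and activate NF-kB, which supports survival and proliferation of T cells, while TNFR1 (Tnfrsf1a), DR3 (Tnfrsf25) and FAS also carry a death domain in the cytoplasm. In Treg cells OX40 (Tnfrsf4), GITR (Tnfrsf18) and TNFR2 (Tnfrsf1b) are known as abundant receptors whose signals accompany Treg maturation in the thymus and expansion in tissue.

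Of the 9 genes, 6 lie within 10.8 Mb of chromosome 4 (GRCm38), 2 on chromosome 6 and 1 on chromosome 19. Tnfrsf4 (chr4:156013595-156016613) and Tnfrsf18 (chr4:156026322-156028894) are direct neighbours with 9.7 kb between them. The others on chromosome 4 are Tnfrsf1b (chr4:145212368-145246870), Tnfrsf9 (chr4:150920155-150946104), Tnfrsf25 (chr4:152115528-152120119) and Tnfrsf14 (chr4:154918487-154928620). Tnfrsf1a lies at chr6:125349723-125362483, Cd27 at chr6:125232620-125237136 and Fas at chr19:34290647-34327775. The table holds 1 value per gene, so no exon or isoform is resolved.

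The promoter sequences of the paired TNF receptors are shown because these 2 genes moved in opposite directions in T143, and a stretch before Tnfrsf9 because it holds the kB motif. They are from RefSeq on GRCm38, read 5′ to 3′ on the strand of the gene, and capitals mark matches to a motif. The 250 bases before the start of Tnfrsf1a (chr6:125349473-125349722, plus strand) and of Tnfrsf1b (chr4:145246871-145247120, minus strand) and 30 bases from chr4:150927951-150927980 (plus strand), 48 to 19 bases before the start of the listed Tnfrsf9 transcript, read:
Tnfrsf1a: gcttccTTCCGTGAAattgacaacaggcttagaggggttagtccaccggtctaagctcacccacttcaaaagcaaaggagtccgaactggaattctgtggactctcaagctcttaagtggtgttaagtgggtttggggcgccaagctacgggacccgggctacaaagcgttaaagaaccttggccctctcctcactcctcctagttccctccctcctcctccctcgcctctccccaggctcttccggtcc
Tnfrsf1b: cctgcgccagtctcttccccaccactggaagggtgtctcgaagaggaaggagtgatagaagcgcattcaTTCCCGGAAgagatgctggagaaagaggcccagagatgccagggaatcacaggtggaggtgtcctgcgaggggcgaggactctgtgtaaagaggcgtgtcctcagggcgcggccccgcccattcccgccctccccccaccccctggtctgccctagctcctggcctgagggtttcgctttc
Tnfrsf9: cagctGGGGATTTCCCaggaggccctgctc

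Motifs were searched on both strands in the 250 bases before each RefSeq start, which gave 11 windows for the 9 genes. The kB consensus was in 1 of 11 windows, the second of Tnfrsf9, at overlapping matches beginning 43 and 42 bases before the start, and in 3.9% of all 32851 promoter windows. The AP-1 motif TGANTCA was in 2 of 11, among them the same Tnfrsf9 window, against 6.75% of all. The STAT motif TTCNNNGAA was in 6 of 11 against 7.02%, and both TNF receptor promoters held it, 244 bases before the start in Tnfrsf1a and 181 in Tnfrsf1b. The forkhead motif TGTTTNC was in 1 of 11 against 17.84%. A match describes letters and not a bound site.

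Sequencing depth, recovered from the values, was 7.83 to 22.64 M reads, lowest in T143 (7.83, 12.25 and 12.6 M). A count of 3 reads, the limit that a count of 0 allows, equals a value of 2.07 to 5.97, far under every member's level, and it covers counting error only. The T cell genes Cd3d, Cd3e, Cd3g and Cd4 summed to 38626 to 38662 in T138, 28613 to 50101 in T143 and 36628 to 46443 in WT. Foxp3, which defines Treg cells, was at 41507 ± 489.9 in T138 (SD, n = 2), 6305 ± 2387 in T143 (n = 3) and 33832 ± 3550 in WT (n = 3). All 5 conventional CD4 T cell markers together summed to 3145 to 3403 in T138, 14884 to 41378 in T143 and 5041 to 5672 in WT. Most of the T143 sum was Igfbp4 (26842, 14163 and 9688), while Il2 was at most 8.36 in any library. Lef1 in T143 replicate 3 (3834) lay inside the WT range (3487 to 4053). Of the 5, 4 passed as higher in T143 than T138 and 2 as higher than WT (limma adjusted p under 0.05). Transcripts of other cells also differed. The 8 myeloid markers, all above 3 reads in every T138 and T143 library and 6 to 8 of them in WT, summed to 6290 to 9177 in T138, 15787 to 65177 in T143 and 1353 to 2099 in WT. The 8 neutrophil markers summed to 3959 to 21840, 85526 to 517143 and 63.4 to 819, and the 8 dendritic cell and MHC class II markers to 76604 to 101274, 6788 to 27964 and 1222 to 1696. B cell markers summed to 44 to 153.5, 39.8 to 92.8 and 149.1 to 504.8, NK cell markers to 341 to 438, 826 to 1187 and 314 to 481, erythroid markers to 765 to 1660, 1901 to 11001 and 173 to 380, and CD8 genes to 264 to 316, 131 to 214 and 87.3 to 189. Xist was at 19143 to 24992 in T143 and at most 129.9 elsewhere, and Ddx3y was at 2094 to 3634 in T138 and WT and at most 1.27 in T143, so sex and line T143 cannot be told apart. The source names of T143 replicate 1 and WT replicate 1 point to another line than their titles, which were followed here.

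The receptors did not move as a block. Against T138, T143 had 4 of 9 members lower (Tnfrsf4, Tnfrsf18, Tnfrsf25 and Tnfrsf1b) and 2 higher (Tnfrsf1a and Tnfrsf14), so 6 of 9 passed an adjusted p under 0.05 in limma, where 21.0% of 15547 genes passed, 10.2% as lower and 10.8% as higher. Against WT, T138 had 4 lower (Tnfrsf9, Fas, Tnfrsf14 and Cd27) and 1 higher (Tnfrsf25), where 11.0% of all genes passed, 5.30% as lower and 5.74% as higher. T143 against WT had 6 lower (Tnfrsf4, Tnfrsf9, Tnfrsf1b, Cd27, Fas and Tnfrsf25) and 1 higher (Tnfrsf1a), where 23.8% passed, 12.1% as lower and 11.7% as higher. The median log2 change of the members was -0.19, -0.46 and -0.73 in these 3 comparisons, beside 0.15, -0.07 and 0.05 over all tested genes. The comparisons share libraries and are not independent. All 9 members reached a group mean of at least 100, while the 15547 tested genes include lower ones. The share of calls among genes of like level was not computed, here or for the lists below.

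**Figure D1:**
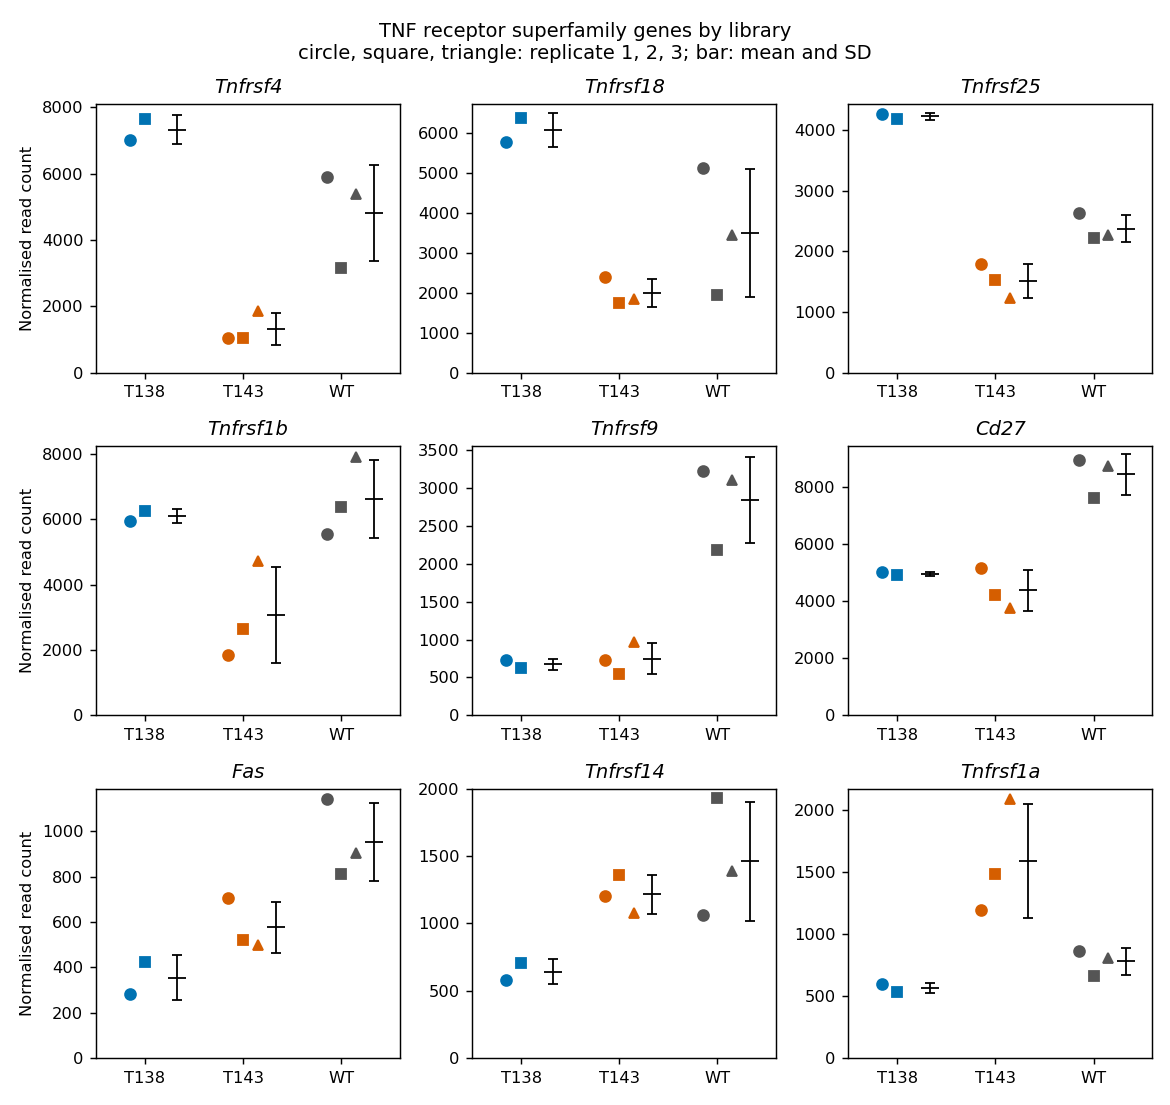
Normalised read count (y axis, from 0) of the 9 receptor genes in each library of T138, T143 and WT. Symbols are replicates, and the bar beside them is the mean with SD. Tnfrsf4 lies at 1035 to 1859 in T143 and at 3162 or more in every other library, while Tnfrsf9 and Cd27 are highest in WT.

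These calls depended on a few settings. With the myeloid marker level (mean log2) as a covariate, 3, 0 and 0 members passed adjustment in limma, the 3 being Tnfrsf4, Tnfrsf25 and Tnfrsf1b, and 7, 4 and 3 had an unadjusted p under 0.05, while edgeR without the covariate called 5, 5 and 6 and DESeq2 6, 5 and 8. Over all genes 1016, 1 and 3 passed with that covariate (3343, 1586 and 1460 with an unadjusted p under 0.05). That level does not overlap between the 3 groups, so in this fit group and covariate can hardly be told apart. Scaled to the 4 T cell genes, 4, 2 and 3 members passed, all in the directions given. Without T138 replicate 1 the members called were 4, 2 and 7, and without T138 replicate 2 they were 3, 2 and 7. Without T138 replicate 1 and T143 replicate 3, those with most neutrophil signal of their lines, 4, 2 and 5 passed, and without T143 replicate 1 and WT replicate 1 the numbers were 5, 6 and 6.

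**Figure D2:**
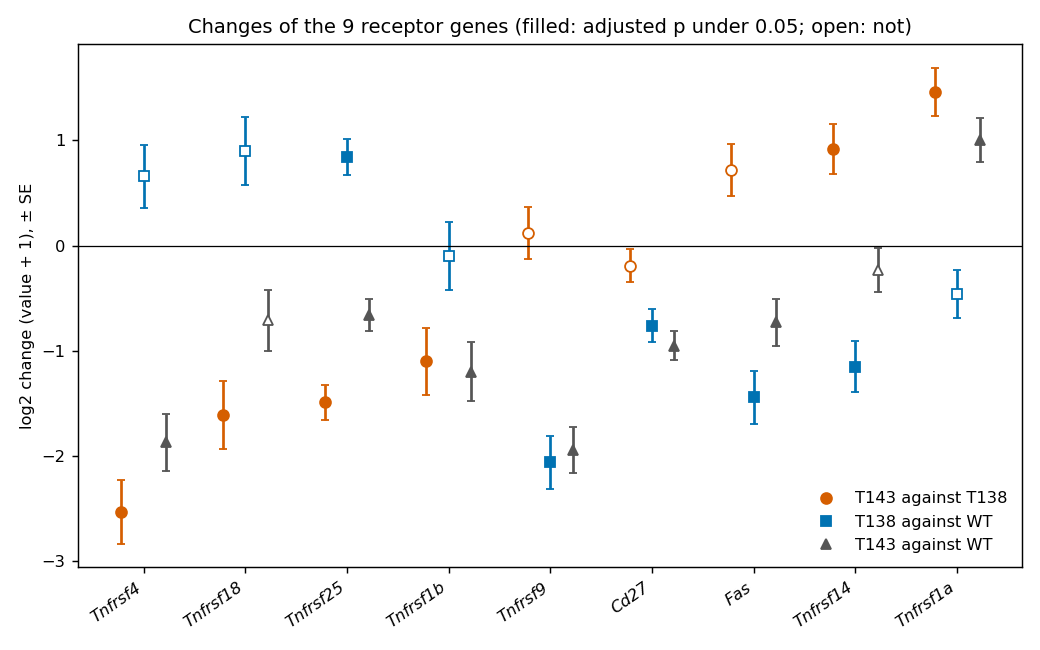
Log2 change ± SE (y axis) of each receptor gene (x axis) in the 3 comparisons, with filled symbols for an adjusted p under 0.05 in limma. T143 lies below both other groups for Tnfrsf4, Tnfrsf25 and Tnfrsf1b, and both lines lie below WT for Tnfrsf9, Cd27 and Fas.

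Tnfrsf4 encodes OX40, a costimulatory receptor that Treg cells carry without stimulation. It was at 7016 and 7638 in T138, at 1057, 1035 and 1859 in T143, and at 5892, 3162 and 5391 in WT. Every T143 library lay below every library of the other groups, and T138 lay above WT. T143 was 5.78-fold lower than T138 (log2 change -2.53 ± 0.30 SE, limma adjusted p = 0.000487) and 3.67-fold lower than WT (-1.87 ± 0.27, adjusted p = 0.00101). The difference between T138 and WT, 0.66 ± 0.30, did not pass (adjusted p = 0.211), and had adjusted p = 0.0486 with the replicate number as a block. In a bulk sample, fewer cells with a transcript and less of it in each cell cannot be told apart, which holds for each gene below. The summed conventional CD4 T cell and neutrophil markers were highest in T143, and their part in this result was not tested.

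Tnfrsf18 encodes GITR, another receptor known as a Treg surface marker. It was at 5764 and 6357 in T138, at 2398, 1742 and 1845 in T143, and at 5124, 1931 and 3448 in WT. T143 lay below T138 with no overlap, but its range overlapped that of WT, whose libraries were spread over the widest range of the 3 groups. The change was -1.61 ± 0.32 for T143 against T138 (adjusted p = 0.00706), a 3.06-fold lower level. That call was lost without T138 replicate 2 (adjusted p = 0.0651) and with T138 replicate 1 and T143 replicate 3 both left out (0.0698). From WT, T138 differed by 0.90 ± 0.32 (adjusted p = 0.112) and T143 by -0.71 ± 0.29 (0.103). T138 passed as higher than WT without WT replicate 1 (adjusted p = 0.0234) and T143 as lower without WT replicate 2 (0.00704) or in DESeq2 (0.0296).

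Tnfrsf25 encodes DR3, the receptor of TL1A, whose stimulation is known to expand Treg cells. It was at 4262 and 4183 in T138, at 1793, 1525 and 1234 in T143, and at 2629, 2218 and 2269 in WT. The 3 groups did not overlap and stood in the order T138, WT, T143. T143 was 2.81-fold lower than T138 (-1.49 ± 0.17, adjusted p = 0.000427) and lower than WT (-0.66 ± 0.15, adjusted p = 0.0119). T138 was higher than WT (0.84 ± 0.17, adjusted p = 0.012), a call lost without T138 replicate 1 (0.077) or T138 replicate 2 (0.0786). Scaled to T cell genes the differences of T138 and T143 from WT had adjusted p = 0.0844 and 0.132, and without T138 replicate 1 and T143 replicate 3 that of T143 had 0.0541.

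Tnfrsf9 encodes CD137, a costimulatory receptor induced by T cell receptor signals. It was at 726 and 619 in T138, at 736, 547 and 964 in T143, and at 3227, 2183 and 3102 in WT. The lines overlapped each other and every library of both lay below every WT library. T138 was 4.17-fold lower than WT (-2.06 ± 0.25, adjusted p = 0.000842) and T143 3.83-fold lower (-1.94 ± 0.22, adjusted p = 0.00035). The lines differed by 0.12 ± 0.25 (T143 minus T138, adjusted p = 0.757), a difference smaller than its error whose sign changed without T143 replicate 3 (-0.08). The rank order of the groups was thus different from that of Tnfrsf4: the level of Tnfrsf4 per kb of transcript was 19.83 and 25.34 times that of Tnfrsf9 in T138, 2.95 to 3.96 times in T143 and 2.97 to 3.75 times in WT.

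Cd27 encodes a costimulatory receptor of naive and memory T cells that binds CD70. It was at 5012 and 4913 in T138, at 5168, 4206 and 3777 in T143, and at 8960, 7630 and 8747 in WT. As for Tnfrsf9, both lines lay below WT and overlapped each other. The change from WT was -0.76 ± 0.16 in T138 (adjusted p = 0.0126) and -0.95 ± 0.14 in T143 (adjusted p = 0.00128). The T138 call was lost without T138 replicate 1 (0.076), without T138 replicate 2 (0.0958), without T138 replicate 1 and T143 replicate 3 (0.0586) and scaled to T cell genes (0.185). The difference between the lines was -0.19 ± 0.16 (adjusted p = 0.425).

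Tnfrsf14 encodes HVEM, which binds LIGHT as a ligand and also the inhibitory receptor BTLA. It was at 579 and 706 in T138, at 1206, 1363 and 1078 in T143, and at 1062, 1932 and 1388 in WT. T138 lay below all other libraries, and T143 overlapped WT. T138 was 2.22-fold lower than WT (-1.15 ± 0.24, adjusted p = 0.0121), and T143 was 1.89-fold higher than T138 (0.92 ± 0.24, adjusted p = 0.0208) and at -0.23 ± 0.21 from WT (adjusted p = 0.48). The difference between the lines lost its call without T138 replicate 1 (0.13), T138 replicate 2 (0.0681) or T143 replicate 2 (0.0695), without T138 replicate 1 and T143 replicate 3 (0.128), and scaled to T cell genes (0.151). The difference of T138 from WT was lost without T138 replicate 1 (0.0963), T138 replicate 2 (0.0509) or both T138 replicate 1 and T143 replicate 3 (0.106), and with that scaling (0.106).

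Fas encodes the receptor of FAS ligand, which triggers apoptosis through FADD and caspase 8. It was at 282 and 423 in T138, at 706, 522 and 500 in T143, and at 1143, 810 and 906 in WT. The groups did not overlap, with T138 lowest and WT highest. T138 was 2.72-fold lower than WT (-1.44 ± 0.25, adjusted p = 0.00494), a call that was lost without T138 replicate 1 and T143 replicate 3 together (0.0519). T143 was lower than WT by a change of -0.73 ± 0.22 (adjusted p = 0.0382), lost when any of T143 replicate 2 (0.12), T143 replicate 3 (0.105), WT replicate 1 (0.119) and WT replicate 3 (0.0878) was left out, without T138 replicate 1 and T143 replicate 3 (0.0887), without T143 replicate 1 and WT replicate 1 (0.0786) and scaled to T cell genes (0.141). The difference between the lines, 0.72 ± 0.25, did not pass (adjusted p = 0.0656).

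The 2 receptors of TNF itself moved in opposite directions in T143. Tnfrsf1a, whose product TNFR1 is made by most cell types, was at 592 and 532 in T138, at 1192, 1478 and 2088 in T143, and at 864, 659 and 808 in WT. Tnfrsf1b, whose product TNFR2 is largely restricted to lymphoid, myeloid and endothelial cells, was at 5953 and 6270 in T138, at 1847, 2653 and 4717 in T143, and at 5557, 6383 and 7926 in WT. T143 lay above every other library for Tnfrsf1a and below every other library for Tnfrsf1b. Tnfrsf1a rose in T143 by 1.46 ± 0.23 against T138 (2.75-fold, adjusted p = 0.00215) and by 1.00 ± 0.21 against WT (adjusted p = 0.00677). The second call was lost when scaled to T cell genes (adjusted p = 0.069). T138 differed from WT by -0.46 ± 0.23 (adjusted p = 0.262).

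Tnfrsf1b fell in T143 by 1.10 ± 0.32 on the log2 scale against T138 (adjusted p = 0.0326) and by 1.20 ± 0.28 against WT (adjusted p = 0.0121). The first call was the least stable of the 6: it was lost when any of T138 replicate 1 (0.116), T138 replicate 2 (0.16), T143 replicate 1 (0.0676), T143 replicate 2 (0.0892), WT replicate 2 (0.0522) and WT replicate 3 (0.0502) was left out, without T143 replicate 1 and WT replicate 1 (0.0868), in edgeR (0.104) and scaled to T cell genes (0.18). The second was lost without WT replicate 3 (0.0566), in edgeR (0.0566) and scaled to T cell genes (0.113). T138 and WT differed by -0.10 ± 0.32 (adjusted p = 0.891). Per kb of transcript Tnfrsf1b was at 5.68 and 6.66 times the level of Tnfrsf1a in T138, 0.87, 1.01 and 1.28 times in T143, and 3.63, 5.47 and 5.54 times in WT.

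Within T143 the myeloid marker level, as mean log2(value + 1), was 10.01, 11.4 and 12.37 in replicates 1 to 3. Both TNF receptor genes stood in that order, and the other 7 members did not. Of 4 genes listed for Treg cells, Foxp3 (3920, 6299 and 8694) and Ikzf2 (3073, 4114 and 5014) stood in it too. Il2ra and Ctla4 did not. Few orders are possible with 3 libraries, and the share of all genes in this order was not computed. The myeloid level was 9.4 and 8.76 in T138 and 5.27 to 6 in WT. Tnfrsf1a values lay lower in T138 than in WT, while the myeloid level was higher in T138. Tnfrsf1b was lowest in T143, the group with the highest myeloid level. What part the myeloid transcripts have in either gene was not tested. With their level as a covariate the change of Tnfrsf1a against T138 was 0.80 (adjusted p = 0.155).

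**Figure D3:**
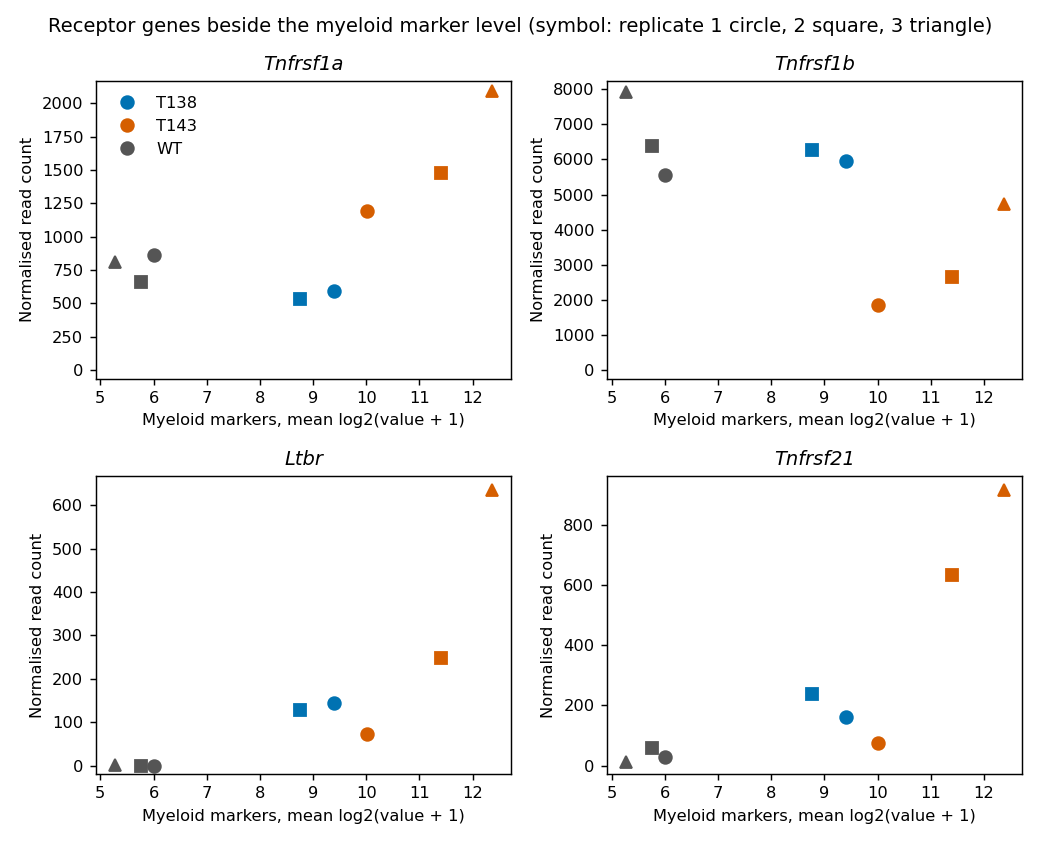
Normalised read count (y axis) of Tnfrsf1a, Tnfrsf1b, Ltbr and Tnfrsf21 beside the mean log2(value + 1) of 8 myeloid markers (x axis), 1 point per library, colour for the group and symbol for the replicate. Ltbr lies at 1.52 or less in WT and reaches 635 in T143 replicate 3, the library with the highest myeloid level (12.37). It lies at 144 and 127 in T138 (myeloid level 9.4 and 8.76) and at 73.6 in T143 replicate 1 (10.01). The dendritic cell and MHC class II marker level, 11.19 and 11.34 in T138 and 8.22, 10.07 and 9.59 in T143, is not shown.

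Levels of different genes were compared per kb of transcript (1.02 to 3.82 kb). The 9 genes together were at 20468 and 21683 per kb in T138, at 10523, 9449 and 10606 in T143, and at 22614, 16426 and 21052 in WT. T143 was thus below every other library, while T138 and WT overlapped. In T138 the level per kb was highest for Tnfrsf4 (7113 ± 427), followed by Tnfrsf18 (5097 ± 353), Cd27 (3183 ± 45.0), Tnfrsf25 (2634 ± 34.9), Tnfrsf1b (1601 ± 58.7), Tnfrsf14 (631 ± 88.5), Tnfrsf9 (318 ± 35.9), Tnfrsf1a (261 ± 19.6) and Fas (238 ± 67.3). Of neighbours in that order, Tnfrsf1a and Fas overlapped.

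In WT the order per kb was Cd27 (5417 ± 458), Tnfrsf4 (4675 ± 1411), Tnfrsf18 (2945 ± 1343), Tnfrsf1b (1734 ± 315), Tnfrsf25 (1480 ± 140), Tnfrsf14 (1435 ± 432), Tnfrsf9 (1342 ± 270), Fas (644 ± 116) and Tnfrsf1a (360 ± 49.0), and every pair of neighbours down to Tnfrsf9 overlapped. In T143 Cd27 led with 2812 ± 457, above Tnfrsf18 (1678 ± 297), Tnfrsf4 (1278 ± 456), Tnfrsf14 (1194 ± 140), Tnfrsf25 (947 ± 174), Tnfrsf1b (805 ± 388) and Tnfrsf1a (736 ± 212), whose neighbours overlapped, and then Fas (389 ± 76.6) and Tnfrsf9 (354 ± 98.7), which overlapped too. Tnfrsf4 made up 33.28 and 34.20% of the summed level per kb in T138, 9.75 to 17.02% in T143 and 18.69 to 25.29% in WT. Cd27 made up 14.53 and 15.71%, 22.85 to 31.50% and 25.42 to 29.79%, and Tnfrsf1a 1.14 and 1.34%, 5.25 to 9.13% and 1.77 to 1.86%.

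**Figure D4:**
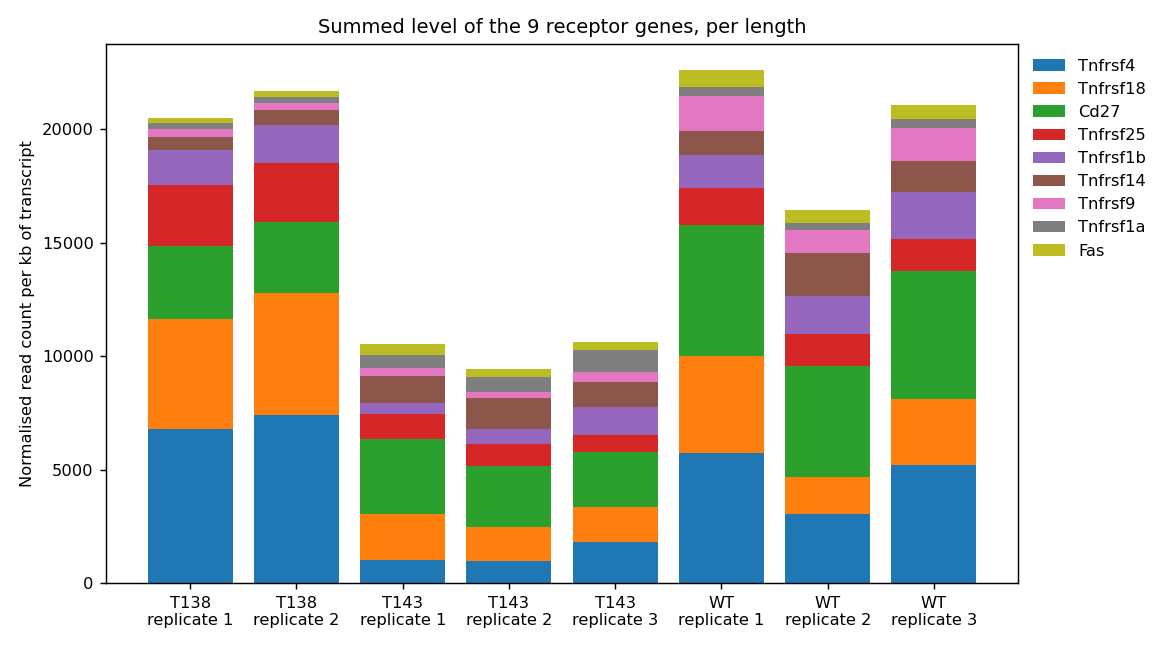
Normalised read count per kb of transcript (y axis, from 0) of the 9 receptor genes, stacked for each library (x axis). The T143 bars end between 9449 and 10606, and Tnfrsf4 and Tnfrsf18 form the bottom of each bar.

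Foxp3 was lower in T143 than in T138 (-2.79 ± 0.27, adjusted p = 0.000206) and in WT (-2.49 ± 0.24, adjusted p = 0.000117). All 4 genes listed for Treg cells passed as lower in T143 in both comparisons in limma. Il2ra, Ctla4 and Ikzf2 changed by -2.72, -3.39 and -2.33 against T138 and by -3.43, -3.14 and -2.36 against WT. The log2 ratio of each member to Foxp3 was computed in each library, as a description. For Tnfrsf4 it was -2.58 and -2.43 in T138, then -1.89, -2.60 and -2.23 in T143, then -2.34, -3.52 and -2.71 in WT, so the 3 groups overlapped. For Tnfrsf1a it was -6.14 and -6.27, then -1.72, -2.09 and -2.06, then -5.11, -5.78 and -5.45, with T143 above the others. For Cd27 it was -3.06 and -3.07 in T138, then 0.40, -0.58 and -1.20 in T143, then -1.73, -2.25 and -2.02 in WT. Mean ratios of the other 6 members were also higher in T143 than in T138 and WT, for example -1.60 against -2.78 and -3.38 for Tnfrsf18. No member fell as far in T143 as Foxp3 did. The largest falls were -2.53 against T138 (Tnfrsf4) and -1.94 against WT (Tnfrsf9). That every mean ratio was higher in T143 thus follows from the Foxp3 level and is not a separate result about the members. The ratios of Tnfrsf1a and Tnfrsf14 also hold called rises of their own. These were 1.46 against T138 and 1.00 against WT for Tnfrsf1a, and 0.92 against T138 for Tnfrsf14.

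Likeness of pattern was measured as the root mean squared difference between log2(value + 1) profiles over the 8 libraries, each centred on its mean. The measure is not scaled to how much a gene varies, so genes that vary little lie near many others. The SD of the log2 profile was 0.45 for Cd27, 0.52 for Tnfrsf14, 0.61 for Fas, 0.60 for Tnfrsf25, 0.73 for Tnfrsf18 and 1.12 for Tnfrsf4. Distances of pairs that vary by unlike amounts therefore do not rank their likeness in shape. Among the members the pair with the smallest distance was Tnfrsf18 and Tnfrsf25 (0.32), followed by Cd27 and Fas (0.40) and Fas and Tnfrsf14 (0.44). The genomic neighbours Tnfrsf4 and Tnfrsf18 were 0.62 apart, and Tnfrsf1a and Tnfrsf4 were farthest (1.67). Of other genes with a mean of at least 310.4, the nearest to Tnfrsf4 were Cish (0.28), a feedback inhibitor of cytokine signalling, Itgae (0.30), the integrin chain CD103, and Matk (0.31). Those nearest to Tnfrsf18 were Socs1 (0.22), Dusp1 (0.22), a phosphatase of MAP kinases, and Sytl1 (0.26). Nearest to Tnfrsf9 were Izumo1r (0.21), which encodes folate receptor 4, Ecm1 (0.31) and Kcnf1 (0.33). Izumo1r was at 2335 and 1924 in T138, at 3377, 1950 and 2628 in T143, and at 10019, 7065 and 11907 in WT.

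The genes nearest to Cd27 were Dgkz, Il21r and Dpp4 (0.13 each), and to Tnfrsf25 Cd1d1 (0.14), Sytl1 (0.14) and Pnrc1 (0.15). Nearest to Tnfrsf1b were Gfi1 (0.18), Atp2b4 (0.19) and Endod1 (0.20), and to Tnfrsf1a Slc27a4 (0.15), Cnr2 (0.16) and Atp6v1a (0.22). Fas was nearest to Armcx2 (0.17), Slc19a1 (0.18) and Cry2 (0.22), and Tnfrsf14 to Bcl9 (0.14), Aldh5a1 (0.14) and Timeless (0.16). All 8 libraries enter both profiles, so these values share depth and group structure.

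Genes beside the members on the chromosome were looked at by position. Plekhg5 ends 0.1 kb before Tnfrsf25 and was at 683 and 785 in T138, at 249, 202 and 184 in T143, and at 297, 420 and 454 in WT. The groups stood in the same order as those of Tnfrsf25, with changes of -1.80 ± 0.26 for T143 against T138 (adjusted p = 0.0014), and, against WT, of 0.93 ± 0.26 in T138 (0.0448) and -0.87 ± 0.23 in T143 (0.022). The call of T138 against WT was lost in 14 of 21 alternatives, among them leaving out T138 replicate 1 or 2, T143 replicate 2 or any WT replicate (adjusted p from 0.062 to 0.217). That of T143 against WT was lost in 7, among them leaving out T143 replicate 2 or 3 or WT replicate 2 or 3 (0.0615 to 0.0865). Whether reads of one gene enter the other was not tested. Sdf4, a transcript of which reaches into the annotated start of Tnfrsf4, was at 8232 and 7809 in T138, at 6669, 5458 and 5652 in T143, and at 8393, 4931 and 6756 in WT. Its group means stood in the same order as those of Tnfrsf4, and T143 lay below T138 with no overlap. The change did not pass (T143 against T138 -0.44 ± 0.20, limma adjusted p = 0.151), and both lines overlapped WT. Whether reads of Sdf4 enter Tnfrsf4 was not tested. On the other side Ttll10, next to Tnfrsf18, was listed at 0 in all 8 libraries. E130112N10Rik, which overlaps Cd27, was at 43.8 to 478, and the assignment of reads to overlapping genes is not stated in the sources used.

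Of 19 other receptors of the family 16 were tested, of which 2 passed for T143 against T138, both lower, 12.5% beside 21.0% of all tested genes. Against WT 3 passed in T138 (2 higher, 1 lower), 18.8% beside 11.0%, and 5 in T143 (2 higher, 3 lower), 31.2% beside 23.8%. Without the covariate these counts ran from 0 to 2, 1 to 4 and 2 to 6 over the alternatives, the lowest 0 without T138 replicate 2. All of the 2, 3 and 5 calls fell among the 10 genes that reached a group mean of 100. The tested genes below that level lower the shares given. Tnfrsf10b, the mouse receptor of the death ligand TRAIL, was at 169 and 235 in T138, at 41.8, 53.5 and 55.7 in T143, and at 123, 174 and 146 in WT. It was lower in T143 than in T138 (-1.98 ± 0.40, adjusted p = 0.00686) and WT (-1.53 ± 0.36, adjusted p = 0.0112), the first lost without T138 replicate 2 (0.0599). Tnfrsf8, which encodes CD30, was at 27.6 and 52.5 in T138, at 27.9, 14.0 and 44.6 in T143, and at 142, 151 and 312 in WT, lower in T143 than WT (-2.81 ± 0.58, adjusted p = 0.00614). For T138 against WT its call (-2.28 ± 0.64, adjusted p = 0.0467) was lost in 13 of 21 alternatives, among them leaving out T138 replicate 1 or 2, T143 replicate 1 or any WT replicate (0.0523 to 0.208).

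Ltbr, the lymphotoxin beta receptor, is known from stromal and myeloid cells and not from T cells. It was at 144 and 127 in T138, at 73.6, 248 and 635 in T143, and at 0, 0 and 1.52 in WT, which is at or under 3 reads, so no fold is given (adjusted p = 0.00173 for T138 and 0.000302 for T143 against WT). Tnfrsf21, which encodes DR6, was at 160 and 240, then 75.6, 635 and 918, then 29.6, 58.6 and 11.4. Both genes rank the T143 replicates as the myeloid markers do, and so does Foxp3. T138, with a myeloid level of 9.4 and 8.76, lay above T143 replicate 1 (10.01) for both genes. The dendritic cell and MHC class II marker level (mean log2) was 11.19 and 11.34 in T138 and 8.22, 10.07 and 9.59 in T143. That level was also higher in T138 than in T143 replicates 2 and 3, where both genes were higher than in T138. What part myeloid or dendritic cell transcripts have in either gene was not tested. Tnfrsf21 was higher in T143 than in WT (3.65 ± 0.88, adjusted p = 0.014), a call lost without T143 replicate 2 (0.0503) or WT replicate 3 (0.056). Tnfrsf11a, which encodes RANK, was at 86.6 and 141 in T138, at 19.9, 40.7 and 49.5 in T143, and at 18.6, 10.7 and 1.52 in WT (T138 against WT adjusted p = 0.0284), a call lost without T138 replicate 1 (0.0838), T138 replicate 2 (0.158), T143 replicate 2 (0.0507) or WT replicate 3 (0.0582), and with T138 replicate 1 and T143 replicate 3 both left out (0.106). It was also lost with the replicate number as a block (0.0626) and scaled to T cell genes (0.0518). Relt and Tnfrsf26 passed in no comparison, at 761 to 1118 and 1043 to 1729. Tnfrsf26, Tnfrsf22 and Tnfrsf23 are related genes whose reads may be shared.

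Of 19 genes for ligands and binding partners, 9 passed in T138 against WT (1 higher, 8 lower), 47.4% beside 11.0% of all tested genes. For T143 against T138 8 passed (6 higher, 2 lower), 42.1% beside 21.0%, and for T143 against WT 5 (1 higher, 4 lower), 26.3% beside 23.8%. The first count was 5 without T138 replicate 2 and 4 without WT replicate 3. Lta, which encodes lymphotoxin alpha, a ligand of both TNF receptors and of HVEM, was at 227 and 406 in T138, at 322, 246 and 194 in T143, and at 2064, 1641 and 1910 in WT. Both lines were below WT with no overlap, by -2.61 ± 0.29 (adjusted p = 0.000503) and -2.90 ± 0.26 (adjusted p = 7.26e-05). Tnf was at 545 and 252, then 318, 400 and 433, then 1146, 748 and 930. It was lower than WT in T138 (-1.32 ± 0.32, adjusted p = 0.0249) and T143 (-1.28 ± 0.29, adjusted p = 0.00942), each lost without T143 replicate 1 and WT replicate 1 together (0.0991 and 0.102). The T138 call was also lost without T138 replicate 2 (-0.76, 0.194), WT replicate 1 (0.0736) or WT replicate 3 (0.0769) and scaled to T cell genes (0.102). Lta and Tnf thus had every library of both lines below every WT library, as did Tnfrsf9, Cd27 and Fas.

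A second set of ligand genes was lowest in T138. Tnfsf8, the ligand of CD30, was at 80.7 and 231 in T138, at 1122, 616 and 1337 in T143, and at 835, 1183 and 765 in WT. It was higher in T143 than T138 (2.82 ± 0.44, adjusted p = 0.00194) and lower in T138 than WT (-2.73 ± 0.44, adjusted p = 0.00349). Fasl, the ligand of FAS, was at 12.8 and 7.62, then 141, 86.5 and 109, then 55.8, 67.1 and 57.0, higher in T143 than T138 (3.35 ± 0.55, adjusted p = 0.0025). Btla, the inhibitory partner of HVEM, was at 1344 and 933, then 2464, 2371 and 2280, then 2649, 3408 and 2586, a change of -1.35 ± 0.19 for T138 against WT (adjusted p = 0.00161) and 1.08 ± 0.19 for T143 against T138 (adjusted p = 0.0031). Cd160, another partner of HVEM, was at 0.98 and 6.77 in T138, at 71.6, 40.7 and 205 in T143, and at 197, 166 and 109 in WT. T138 was thus low in HVEM and in both of these partners.

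Other ligand genes were lowest in T143. Tnfsf10, which encodes TRAIL, was at 2090 and 2267, then 949, 975 and 902, then 1337, 1656 and 1402 (T143 against T138 -1.21 ± 0.15, adjusted p = 0.000653; T143 against WT -0.63 ± 0.14, adjusted p = 0.0077). Tnfsf11, which encodes RANKL, was at 860 and 641, then 304, 232 and 431, then 728, 675 and 888 (T143 against WT -1.28 ± 0.25, adjusted p = 0.00439). Tnfsf13, which encodes APRIL and is known from myeloid cells, was instead highest in T143, at 39.8, 135 and 252, and listed at 0 in both T138 libraries and at 0, 39.4 and 0 in WT. Its limma calls (adjusted p = 0.0126 against T138 and 0.0252 against WT) were lost in edgeR (0.101 and 0.227), the first also without T138 replicate 1 (0.0598) or T138 replicate 2 (0.0753), and the second without T143 replicate 2 (0.0751) or 3 (0.0829) and without WT replicate 1 (0.078) or 3 (0.0987). With T138 replicate 1 and T143 replicate 3 both left out each had adjusted p = 0.114. Several ligands of members were scarce in these libraries. Tnfsf4, the OX40 ligand, was at 0 to 17.9, Tnfsf18, the GITR ligand, at 0 to 2.55, and Cd70, the ligand of CD27, at 0 to 15.2 over the 8 libraries, while Tnfsf9, the CD137 ligand, was at 22.9 to 154.

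**Figure D5:**
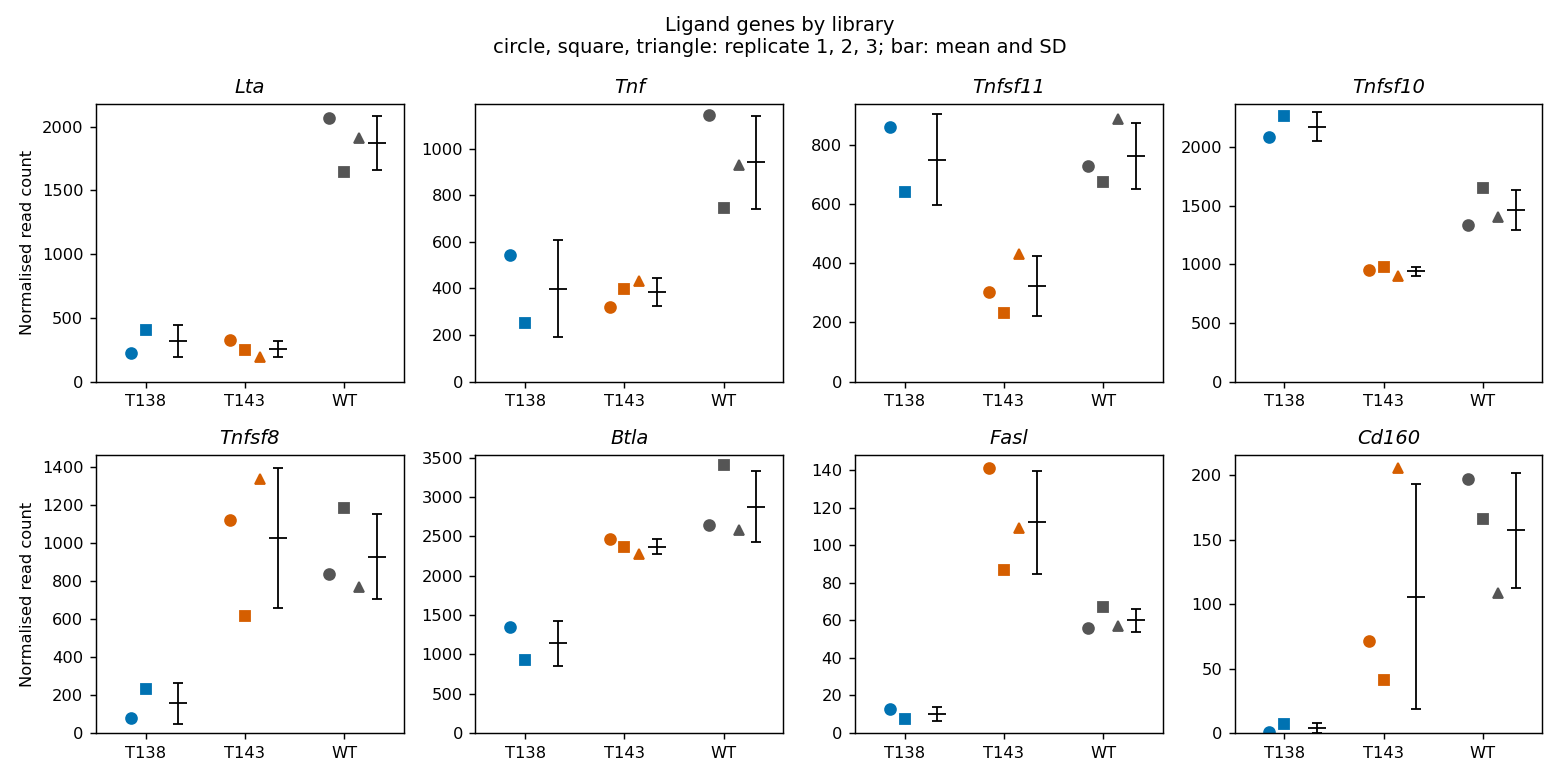
Normalised read count (y axis, from 0) of 8 ligand genes in each library, with replicates as symbols and the mean with SD beside them. Lta and Tnf are highest in WT, Tnfsf11 and Tnfsf10 lowest in T143, and Tnfsf8, Btla, Fasl and Cd160 lowest in T138.

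Most of the 24 adaptors and regulators behind the receptors passed in no comparison, and all of those that passed in T143 were lower. They were 7 for T143 against T138, 29.2% of the list beside 21.0% of all tested genes, and 8 against WT, 33.3% beside 23.8%. In T138 against WT 2 passed, both higher, 8.33% beside 11.0%. Leaving out T138 replicate 1 brought the first count to 4, T138 replicate 2 to 3 and T143 replicate 2 to 4. Traf1, an adaptor of TNFR2 and CD137 that NF-kB induces, was at 3868 and 4202 in T138, at 2191, 1815 and 1887 in T143, and at 4239, 5315 and 5837 in WT. It was lower in T143 than in T138 (-1.04 ± 0.17, adjusted p = 0.0021) and WT (-1.38 ± 0.15, adjusted p = 0.00024). Tnfaip3, which encodes the ubiquitin-editing inhibitor A20, was at 23736 and 25603 in T138, at 1777, 1868 and 1948 in T143, and at 4745, 3902 and 3675 in WT. T143 differed from T138 by -3.73 ± 0.15 (adjusted p = 3.26e-07). Against WT it was higher in T138 by 2.59 ± 0.15 (2.42e-05) and lower in T143 (-1.13 ± 0.13, 0.000357).

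Smaller changes in T143 were those of Sharpin, a subunit of the linear ubiquitin ligase (-0.78 ± 0.15 against T138, adjusted p = 0.00475), Tank (-0.84 ± 0.12 against WT, adjusted p = 0.000972) and Birc2, the ubiquitin ligase cIAP1 (-0.71 ± 0.13 against WT, adjusted p = 0.00363). Tab2, a partner of the kinase TAK1, was lower in T143 than T138 (-0.74 ± 0.16, adjusted p = 0.0088), lost without T138 replicate 2 (0.0719) or T138 replicate 1 (0.0508). The death pathway genes Fadd, Casp8 and Cflar did not pass in any comparison, with Fadd at 302 to 398, Casp8 at 2339 to 4207 and Cflar at 2701 to 4403. Map3k14, which encodes the NF-kB inducing kinase NIK, was at 1118 to 1817. Scaled to T cell genes the calls named here of Sharpin (0.115), Tank (0.0834), Birc2 (0.148), Tab2 (0.174), Btla in T143 against T138 (0.068), and Tnfsf10 (0.208), Tnfrsf10b (0.0839) and Tnfrsf21 (0.0821) in T143 against WT were lost. The T cell scaling also ended those of Tnf, Tnfrsf8, Tnfrsf11a and Plekhg5 in T138 against WT, and that of Plekhg5 in T143 against WT.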

How the data were processed

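The authors deposited a scaled signal for each gene: its read number divided by a constant of the library, with every library summing to 15.59 M. This was read from the values, since 100% came out as whole reads within 0.01 after division by the library's step. Per the submitters' processing notes CASAVA 1.8.2, STAR 2.5.2b, HOMER 4.8 and edgeR were used with build mm10, in no stated role. The library kit keeps strand, per the labels' protocols; the treatment of strand, duplicates and multi-mapped reads in counting is not stated in the sources used. Values are called normalised read counts.

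Tests were limited to genes that reached 1 in 2 or more libraries (15547 of 24453). The scale was log2(value + 1) and the tool limma 3.58.1 under R 4.3.3 (trend, robust, two-sided, Benjamini-Hochberg over all tested genes, called under 0.05). All 8 libraries were fitted by group, so that T138 with 2 libraries shares an estimate of the spread. The log2 scale with a pseudocount of 1 understates changes of low genes. edgeR 4.0.16 and DESeq2 1.42.0 were run on recovered reads as alternatives. The procedure was tested on simulated data with changes set in T143 alone. That setting leaves out the differences in cell type markers seen here. Members and gene lists were chosen with earlier results of these data known. Named genes were all members, up to 4 genes per list and comparison with the smallest p and a group mean of at least 100, other list genes at that level as values, and the 3 genes nearest to each member in profile; list genes below that level, and neighbours by position, were named after their values were seen. Positions and promoters are from RefSeq (GRCm38.p6) and transcript lengths from GENCODE M21, found for 124 of 125 list entries.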

Additional observations from a re-analysis of the deposited data

How the results depend on the processing

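Counts of calls and the changes of the genes named with a test were recomputed under 21 alternatives, 20 planned and 1 added after seeing the data (without T138 replicate 1 and T143 replicate 3). Of 567 recomputed changes of the members, 498 kept direction and side of the threshold, 53 lost and 5 gained a call, and 11 changed sign. Genes called were 3272, 1716 and 3698 for T143 against T138, T138 against WT and T143 against WT; scaled to T cell genes they were 1195, 760 and 1586 (955 higher and 631 lower in the last, against 1818 and 1880), with the myeloid covariate 1016, 1 and 3, and under the added alternative 1737 and 989 in the first 2. Leaving out 1 library gave 1345 to 3674, 757 to 1837 and 2460 to 3575. Members called (6, 5 and 7) were 3, 0 and 0 with the covariate; scaled to T cell genes 2 and 3 in the last 2; under the added alternative 2 for T138 against WT; and 3 to 6, 2 to 6 and 5 to 8 leaving out 1 library. With the covariate the other receptors, ligands and adaptors called fell to 0, 2 and 1 for T143 against T138 and to 0 in both comparisons with WT, and the Foxp3 change of T143 against WT had adjusted p = 0.0726. The cause of these shifts was not tested. With quantile normalization the median over all tested genes was 0.01 for T143 against T138 (0.15 as deposited) and -0.08 against WT (0.05 as deposited), and no member changed sign.

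Signs changed, without a call, with the myeloid covariate for Tnfrsf9 (-0.16) and Cd27 (0.17) in T143 against T138, for Tnfrsf4 (-0.21), Tnfrsf21 (-2.20) and Traf5 (0.30) in T138 against WT, and for Tnfrsf1a (-0.69), Tnfrsf14 (0.34), Tnfrsf25 (0.28), Fas (0.46), Tnfrsf21 (-4.54), Plekhg5 (0.48) and Tnfsf13 (-1.09) in T143 against WT. They also changed for Tnfrsf9 in T143 against T138 without T143 replicate 3 (range over left-out libraries -0.08 to 0.33) and Tnfrsf1b in T138 against WT without WT replicate 3 (-0.22 to 0.04). With the replicate number as a block 6, 6 and 7 members passed, Tnfrsf4 becoming a call in T138 against WT, and Tnfrsf9 in T143 against T138 (-0.02) and Tnfrsf1b in T138 against WT (0.15) changed sign. Deviations of same-numbered libraries from their group means had correlations from -0.06 to 0.05, and those of other libraries from -0.07 to 0.07. In groups of 2 or 3 libraries these deviations are tied to each other, so the values cannot decide whether the numbers pair libraries.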
